A study of Mus musculus with 4 samples.

Results

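The ubiquitin-conjugating enzymes, or E2 enzymes, were taken as the genes whose symbol begins with Ube2 followed by a letter, with Ube2l6 left out. The rule picked 36 genes from the 22063 in the deposited table. ID8 cells are a mouse line of ovarian cancer derived from ovarian surface epithelium. Poly(A)-selected RNA was sequenced from ID8 cells labelled wild type and carrying a control shRNA (shCtrl, 2 libraries) and from ID8 cells with USP9X knocked down by an shRNA (shUSP9X, 2 libraries). Per the methods of the study, shRNAs were delivered by lentivirus from a puromycin-selectable vector. Which of the designed hairpins the shUSP9X cells carried, whether the cells were a pool or 1 clone, and whether the 2 libraries of a group came from separate cultures are not given in the sources used here, so p-values measure only the spread between these libraries. The estimated counts of the libraries summed to 17232006 (shCtrl 1), 15611363 (shCtrl 2), 19978889 (shUSP9X 1) and 17021261 (shUSP9X 2).

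E2 enzymes carry activated ubiquitin, or a related small protein such as NEDD8 or SUMO, as a thioester on a catalytic cysteine. They receive it from an E1 activating enzyme and, together with an E3 ligase that holds the substrate, pass it on to a lysine. The E2 often decides which type of chain is built, and therefore whether the substrate is degraded or used in signaling or repair. USP9X works in the opposite direction, as a deubiquitinase that removes ubiquitin from its substrates.

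Usp9x itself had 298 and 282 CPM (counts scaled to a common library size, with TMM normalization) in the shCtrl libraries against 19.7 and 20.5 in the shUSP9X libraries. The log2 fold change was -3.85 (standard error [SE] 0.0585, adjusted p = 4.66e-26, edgeR's quasi-likelihood test with Benjamini-Hochberg adjustment), in the direction of the labels. Of 8 epithelial and mesothelial markers, 7 exceeded 3 counts in at least 1 library. Their summed level was 2408, 2435, 2768 and 2716 CPM in shCtrl 1, shCtrl 2, shUSP9X 1 and shUSP9X 2, with Krt19 the most abundant. The members did not move alike. Krt8 (314 and 324 CPM in shCtrl against 602 and 602 in shUSP9X) and Krt18 (391 and 372 against 600.4 and 592) were higher in shUSP9X. The mesothelial markers Wt1 (358 and 373 against 257 and 252) and Msln (473 and 492 against 352 and 346) were lower. Upk3b, of the same list, was nearly level (168 and 163 against 170 and 172). Of 11 leukocyte markers, 4 exceeded 3 counts in at least 1 library. Their sum was 0.115 and 0.0633 CPM in shCtrl against 8.35 and 9.50 in shUSP9X, with Itgam the most abundant and Cd3e, C1qa and Cpa3 at 0 in every library. The part of these transcripts in the values below was not tested.

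Of the 36 genes, 31 passed the filter on low counts and were tested among 11448 genes. Ube2d2b, Ube2dnl1, Ube2dnl2 and Ube2ql1 had 0 counts in every library, and the counts of Ube2u were 8 and 1 in shCtrl against 1 and 1 in shUSP9X, so these 5 were not tested. At an adjusted p under 0.05, 7 of the 31 fell and 17 rose in shUSP9X cells, where 33.6% of all tested genes fell and 33.8% rose. The fall of Ube2g1, however, turned into a rise when the dependence of the counts on GC content and length was removed. The median log2 fold change of the 31 genes was 0.13, against -0.0005 over all tested genes. Most of the changes were small. The median size of the log2 fold change among the 24 called genes was 0.39, against 0.52 among all called genes, and 29.2% of them passed 1.5-fold against 43.3% of all called genes.

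The study stated a cutoff of a p-value under 0.05 with a fold change above 1.5, and the p-value was taken here as unadjusted. At this cutoff Ube2v2 and Ube2h were lower and 5 genes were higher, among them Ube2g2, Ube2v1, Ube2m and Ube2cbp. Of these named genes, Ube2h and Ube2cbp remained past 1.5-fold when the GC content and length offset was applied, whereas Ube2v2, Ube2g2, Ube2v1 and Ube2m changed by less. Under the offset Ube2b (-0.59), Ube2n, Ube2w and Ube2k were past 1.5-fold. The transcript lengths used there for Ube2b and Ube2n differed from those that their deposited values imply. Over all tested genes 18.7% were lower and 10.8% higher at this cutoff. Ube2g2 passed it narrowly with a 1.51-fold rise, and Ube2l3 (1.36-fold) was the nearest of the rising genes that did not pass. Ube2g2 no longer passed, and 4 genes were higher at the cutoff, with library size only (log2 fold change 0.56), with at least 10 counts in every library (0.58), on log2(FPKM + 1) and log2(FPKM + 0.1) (0.55 and 0.57), without shCtrl 1 (0.53) and without shUSP9X 1 (0.56). In 25 of the 31 genes the CPM values of the 2 groups did not overlap, against 82.3% of all tested genes. The 24 called genes were all among these 25, and the other was Ube2d1 with 20.3 and 21.1 CPM in shCtrl against 22.6 and 21.7 in shUSP9X.

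**Figure D1:**
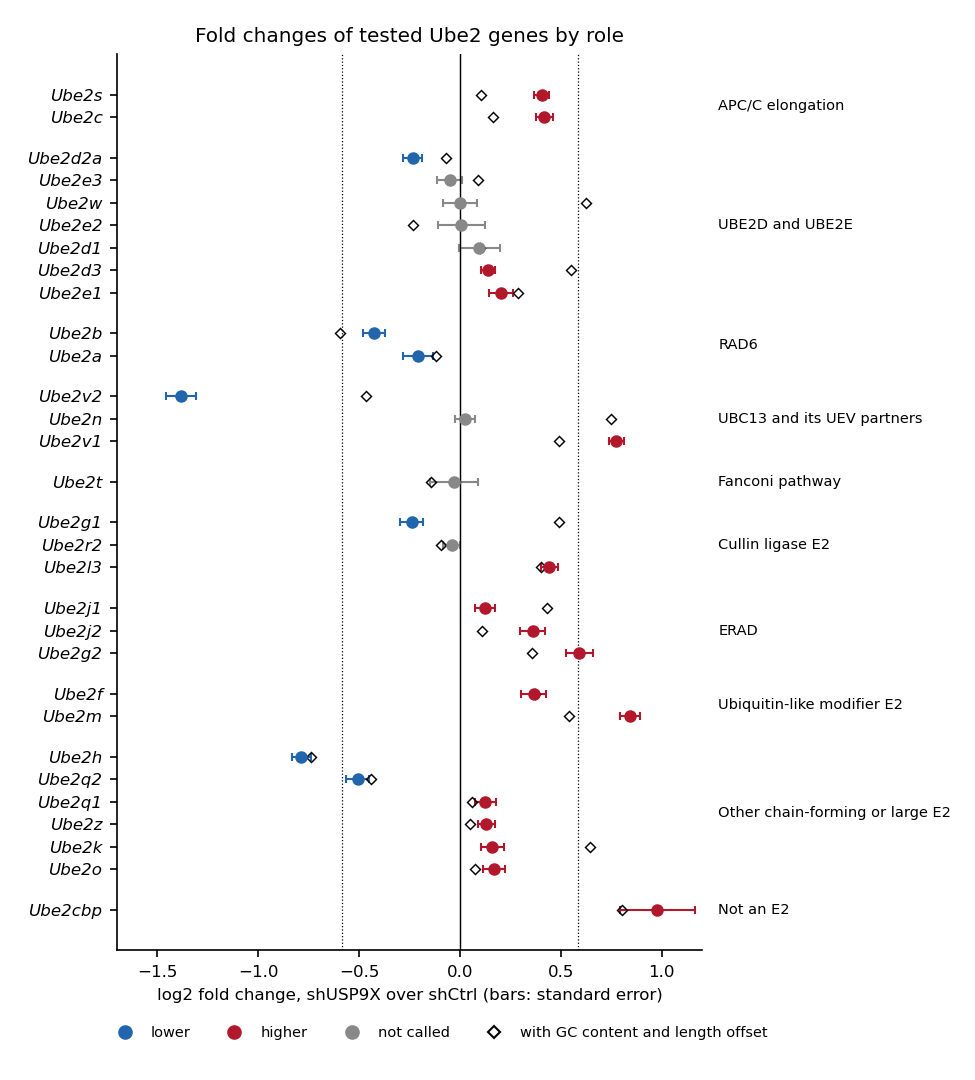
Log2 fold change (shUSP9X over shCtrl, horizontal axis) with its standard error for tested Ube2 genes, grouped by role, with blue for an adjusted p under 0.05 and lower, red for higher and gray for not called; open diamonds are the values with the GC content and length offset, and dotted lines mark 1.5-fold. Ube2v2 (-1.38) lies farthest left, Ube2m (0.84) and Ube2cbp (0.98) lie to the right, and the diamond of Ube2g1 lies on the other side of 0.

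Taken as a whole, the Ube2 transcripts made up 0.357% of all counts in both shCtrl libraries and 0.400 and 0.403% in the shUSP9X libraries. On the FPKM scale, which divides by transcript length and allows genes to be compared, their levels summed to 2151 and 2165 in shCtrl against 2637 and 2654 in shUSP9X. In shCtrl cells Ube2d3 was the most abundant (mean FPKM 259), followed by Ube2c (217) and Ube2s (209), and Ube2v1 (118) and Ube2l3 (117) were also among the highest. In shUSP9X cells the same 5 genes were at 306, 284, 273, 202 and 162. At the low end stood Ube2e2 (13.8), Ube2t (13.4) and Ube2cbp (2.42). Neighbors in this order were often indistinguishable. Ube2v1, for instance, had 118 and 119 FPKM in the shCtrl libraries, within the range of 113 to 120 of Ube2l3.

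The largest opposite changes were within the pair of ubiquitin E2 variants. Ube2v1 and Ube2v2 encode proteins that resemble an E2 but lack the catalytic cysteine, and each partners with Ube2n (UBC13) to build chains used in signaling (Ube2v1) or in tolerance of DNA damage (Ube2v2, also MMS2). Ube2v1 had 205 and 204 CPM in shCtrl against 352 and 347 in shUSP9X (log2 fold change 0.78, SE 0.0386, adjusted p = 1.16e-15). Ube2v2 had 61.8 and 63.1 CPM in shCtrl against 24.1 and 23.7 in shUSP9X (log2 fold change -1.38, SE 0.0755, adjusted p = 8.32e-15). Both shUSP9X libraries thus lay far above both controls for the first gene and far below them for the second. Ube2n, their catalytic partner, had 131 and 122 CPM in shCtrl against 129 and 129 in shUSP9X (log2 fold change 0.03, SE 0.0491), and its groups overlapped. Of the summed FPKM of the pair, Ube2v1 held 68.1 and 68.2% in shCtrl and 90.0 and 90.1% in shUSP9X. With the GC content and length offset the changes were 0.49 for Ube2v1 and -0.47 for Ube2v2, both still called, and Ube2n was at 0.75 (adjusted p = 9.75e-16). The offset of Ube2n used a transcript of 3867 bases, whereas its deposited counts and FPKM together imply a length of 1927 to 1987 bases. The effect of this difference was not tested.

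The values of Ube2v1 and Ube2v2 rest on the assignment of reads to each gene, and the longest exact run of bases that the transcripts share is shown; near-identical stretches were not searched. It is 17 bases long and lies in coding sequence of exon 2 of 3 in both genes, at chr2:167617860-167617876 (minus strand) for Ube2v1 and chr16:15581090-15581106 (minus strand) for Ube2v2 in GRCm38. Ube2v1 also shares 1673 exonic bases on the same strand with Gm20431, a gene model with a mean of 7.6 counts. The run is printed from 5′ to 3′ in the transcript direction.
Ube2v1 and Ube2v2: gacatgacacttacaag

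**Figure D2:**
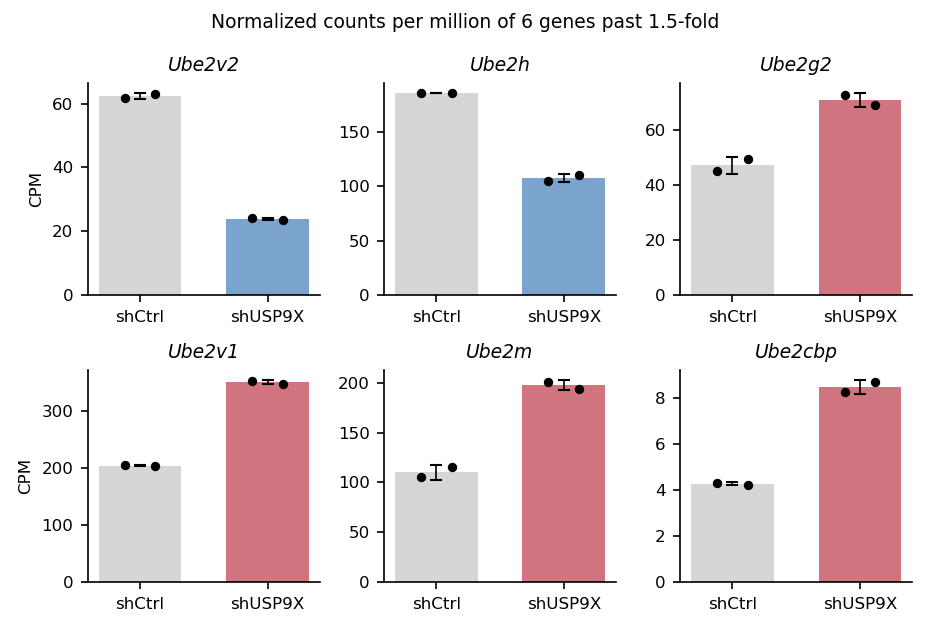
CPM (TMM-normalized, vertical axes from 0) of 6 Ube2 genes past 1.5-fold; bars are group means, error bars the SD, and points the 2 libraries of each group. In each of the 6 genes both shUSP9X points lie on the same side of both shCtrl points, as for Ube2v2 with 61.8 and 63.1 against 24.1 and 23.7.

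Both NEDD8-conjugating enzymes rose. Ube2m transfers NEDD8 to most cullins, the scaffolds of the largest E3 family, and had 105 and 115 CPM in shCtrl against 201 and 194 in shUSP9X (log2 fold change 0.84, SE 0.0494, adjusted p = 3.77e-14). Ube2f, which transfers NEDD8 to cullin 5, rose less, from 61.7 and 57.1 to 75.7 and 77.6 CPM (0.37, SE 0.061, adjusted p = 8.09e-06). With the GC content and length offset the values were 0.54 and 0.37, and both genes were still called. The subunits of the NEDD8 E1 fell. Uba3, its catalytic subunit, had a log2 fold change of -0.87 (SE 0.0485) and -0.35 with the offset. Nae1, its regulatory subunit and a gene named here after its value was seen, was at -0.72 (SE 0.0887) and at -0.18 with the offset, where its call was lost (adjusted p = 0.0595). The SUMO E1 subunits Uba2 (0.26, with the offset 0.32) and Sae1 (0.31, with the offset 0.09), named on the same basis, rose. Uba1, the main ubiquitin E1, rose by 0.54 (SE 0.0328), Uba7, the E1 of ISG15, by 1.05 (SE 0.131), and Uba6, a second ubiquitin E1, fell by 1.55 on the log2 scale (SE 0.0705), with -0.91 under the offset. Of the 9 E1 genes examined, 4 fell and 5 rose, with a median of 0.21 that was 0.01 with the offset, under which 3 fell and 4 rose. This count and those of the partner lists below stand beside 33.6% of all tested genes that fell and 33.8% that rose, or 29.6% and 33.9% with the offset.

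Among the modifiers themselves 3 of 10 genes fell and 7 rose (median log2 fold change 0.24), and with the offset 1 fell and 5 rose (median 0.09). Nedd8 rose by 0.46 and Sumo3 by 0.45, and with the offset they were at 0.14 (adjusted p = 0.0493) and 0.25. Ufm1 fell (-0.30), but was at 0.46 with the GC content and length offset. Among the 14 SUMO ligases and proteases, 8 fell and 3 rose, with a median of -0.30 that was -0.08 with the offset, under which 6 fell and 4 rose. The lowest were Ranbp2, a nucleoporin with SUMO ligase activity (-3.39), and the SUMO protease Senp6 (-1.49), at -1.88 and -0.92 with the offset, where the protease Senp7 (-1.09), named after its value was seen, lay between them. The highest was the ligase Pias4 (0.70).

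The 2 enzymes that serve the anaphase-promoting complex (APC/C), the E3 ligase that ends mitosis, were among the 3 most abundant Ube2 genes of shCtrl cells by FPKM and rose by similar amounts. Ube2c starts ubiquitin chains on APC/C substrates and had 209 and 208 CPM in shCtrl against 275 and 283 in shUSP9X (log2 fold change 0.42, SE 0.04, adjusted p = 6.98e-10). Ube2s lengthens those chains and had 257 and 254 CPM in shCtrl against 337 and 341 in shUSP9X (0.41, SE 0.0377, adjusted p = 4.12e-10). The shUSP9X libraries lay above the controls in both genes. With the GC content and length offset the rises were 0.16 and 0.10, still called. Ube2s shares 183 exonic bases on the opposite strand with Rpl28 (mean count 8642), and the library kit is not described as strand-specific.

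The other APC/C genes did not move as a block. Of 17 subunits and regulators 4 fell and 9 rose, with a median log2 fold change of 0.14. Under the offset 5 fell and 7 rose (median 0.13). Cdc27, a scaffold subunit, fell by 1.34 on the log2 scale (SE 0.0497) and the inhibitor Fbxo5 by 0.63 (SE 0.0883), and with the offset they were at -0.36 and -0.51. Anapc7 (0.61, SE 0.0693) and Anapc13 (0.59, SE 0.16) rose most, but with the offset Anapc7 was at 0.40 and Anapc13 at 0.33, no longer called (adjusted p = 0.0749). The highest with the offset were Anapc1 (1.11, adjusted p = 4.86e-23), which was at 0.14 without it, and Anapc10 (0.63, without it -0.04), both named after their values were seen. Of 14 genes of mitosis and proliferation, 5 fell and 7 rose, with a median of 0.08 that turned to -0.09 with the offset, under which 6 fell and 5 rose. Mki67, the proliferation marker Ki-67, had 910 and 840 CPM in shCtrl against 39.9 and 40.1 in shUSP9X (-4.45, SE 0.0485), and the kinetochore gene Cenpf fell by 4.70 on the log2 scale (SE 0.0929). With the offset Mki67 was at -3.38 and Cenpf at -3.31. The mitotic kinases Plk1 (0.69, SE 0.0408) and Aurka (0.45, SE 0.0439) rose, and were at 0.45 and 0.25 with the offset.

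The promoter of Ube2c is shown because it holds the densest set of CCAAT boxes among the promoters of the Ube2 genes, a motif found in many genes expressed in mitosis. RefSeq promoters (GRCm38.p6, from 250 bases before to 50 after the start site) were given for 24 of the 31 tested genes, with several for some genes. Of the falling genes, Ube2v2 and Ube2d2a had none. The stretch at chr2:164769694-164769909 (plus strand) runs from -235 to -20 relative to the start site. Capitals mark CCAAT on either strand (ATTGG where it lies on the opposite strand) and, at -29 on the opposite strand, the cell cycle element CHR (TTTGAA, here TTCAAA). There are 6 CCAAT boxes, of which those at -186 and -183 overlap.
Ube2c: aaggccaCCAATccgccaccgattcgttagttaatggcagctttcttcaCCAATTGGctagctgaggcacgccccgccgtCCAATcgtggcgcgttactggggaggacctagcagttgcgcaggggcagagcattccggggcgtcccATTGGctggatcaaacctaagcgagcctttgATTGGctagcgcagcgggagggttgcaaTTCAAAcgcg
Motifs were counted by gene, as present where at least 1 of its promoters held a match on either strand. CCAAT was present in 5 of 14 rising Ube2 genes (Ube2c, Ube2d3, Ube2e1, Ube2f and Ube2l3). It was present in 0 of 5 falling genes and 1 of 5 not called (Ube2t), against 43.6% of all tested genes with a promoter. CHR was present in 3 of the 14 rising genes (Ube2c, Ube2f and Ube2z), 0 of the 5 falling and 0 of the 5 not called, against 14.2%. A match describes these letters in this window only.

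Both RAD6 enzymes fell. Ube2a and Ube2b attach single ubiquitins to histone H2B (with Rnf20 and Rnf40) and to PCNA (with Rad18). Ube2b had 94.9 and 98.1 CPM in shCtrl against 70.8 and 73.0 in shUSP9X (log2 fold change -0.42, SE 0.0548, adjusted p = 1.56e-07). Ube2a had 47.7 and 44.9 CPM in shCtrl against 41.4 and 38.8 in shUSP9X (-0.21, SE 0.0745, adjusted p = 0.0164). The groups did not overlap in either gene, but the call of Ube2a was lost with the GC content and length offset (-0.12, adjusted p = 0.152), under which Ube2b was at -0.59. It was also lost under DESeq2 (adjusted p = 0.0878), on the FPKM scales (0.17 and 0.172), without shCtrl 1 (0.115) and without shUSP9X 2 (0.18). The longest exact run shared by their transcripts is 18 bases, 17 of them coding in both genes, and near-identical stretches were not searched (chrX:36874485-36874502, plus strand, and chr11:52000320-52000337, minus strand, GRCm38).
Ube2a and Ube2b: catgtcgaccccggcccg

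Of 12 listed ligases, 7 fell and 2 rose, with a median log2 fold change of -0.31. The list holds ligases that work with the RAD6 enzymes or with UBC13, and also Fancl of the Fanconi anemia pathway, which was not called. With the offset for GC content and length, 4 fell and 4 rose, with a median of -0.07, and Ubr1 (-0.45 without it, 0.56 with it) and Traf6 (-0.23 and 0.21), named after their values were seen, were called in opposite directions. Hltf and Shprh, which extend chains on PCNA, fell by 2.12 (SE 0.0815) and 0.96 (SE 0.0932) on the log2 scale. With the offset Hltf was at -1.20, and Shprh was at -0.10 and no longer called. Rnf40 rose by 0.41 (SE 0.0489) and was at 0.25 with the offset. Rnf8, a ligase of the DNA damage response, rose by 0.28 (SE 0.115) but was at -0.05 with the offset, and its call was lost under DESeq2 (adjusted p = 0.144), with library size only (0.0605), without shCtrl 1 (0.0945), without shCtrl 2 (0.052) and without shUSP9X 2 (0.205). Ube2t, the E2 of the Fanconi anemia pathway, had 14.4 and 15.1 CPM in shCtrl against 14.2 and 14.7 in shUSP9X (-0.03, SE 0.12), and its groups overlapped.

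The UBE2D and UBE2E enzymes place the first ubiquitin on many substrates and work with a wide range of E3 ligases. Of the 7 tested genes of this class, which includes Ube2w, an E2 that modifies protein N termini, 1 fell and 2 rose. Ube2d3, the most abundant Ube2 gene, had 382 and 378 CPM in shCtrl against 416 and 421 in shUSP9X (log2 fold change 0.14, SE 0.0357, adjusted p = 0.00119). Ube2e1 rose from 61.0 and 58.3 to 69.0 and 68.3 CPM (0.20, SE 0.0609, adjusted p = 0.00481). Ube2d2a fell from 163 and 150 to 134 and 132 CPM (-0.23, SE 0.049, adjusted p = 0.00015), and its groups did not overlap. Under the offset for GC content and length, Ube2d3 was at 0.55 and Ube2e1 at 0.29, and Ube2d2a was at -0.07 and no longer called (adjusted p = 0.173). On the 2 FPKM scales Ube2d2a was at 0.03 and not called (adjusted p = 0.548 and 0.55).

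Ube2d2a did not differ in this way on the FPKM scale. Its FPKM was 88.7 and 83.1 in shCtrl against 87.7 and 88.2 in shUSP9X, and the log2 fold change of FPKM was 0.03 (adjusted p = 0.55, limma-trend on log2(FPKM + 0.1)). The length by which the authors' FPKM values divide the counts can be worked out from the ratio of both columns. For Ube2d2a it was 1851 and 1822 bases in shCtrl against 1510 and 1482 in shUSP9X. How the authors formed this length is not given in the sources used here. Of the 31 genes, Ube2d2a (ratio 0.814) and Ube2e1 (0.896) had a ratio of shUSP9X to shCtrl length under 0.9, against 7.49% of all genes with at least 20 counts in every library. The share of each isoform was not tested.

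Ube2d1, Ube2e2, Ube2e3 and Ube2w were not called, with log2 fold changes from -0.05 to 0.10. With the GC content and length offset Ube2w was at 0.62 (adjusted p = 7.62e-08). The transcripts of the UBE2E enzymes share longer runs than those of the other pairs printed here. The longest, between Ube2e2 and Ube2e3, has 27 coding bases (chr14:18630386-18630412, minus strand, and chr2:78913693-78913719, plus strand, GRCm38). That between Ube2e1 and Ube2e3 has 26 (chr14:18283349-18283374, minus strand, and chr2:78920023-78920048, plus strand).
Ube2e2 and Ube2e3: aacatttatgaatggaggtcaactata
Ube2e1 and Ube2e3: gccagacagtggaccaagagatacgc
The longest run between Ube2d2a and Ube2d3 was 42 coding bases. Reads that lie inside such runs could be split between genes by the counting. In 6 Ube2 genes (Ube2d3, Ube2e1, Ube2s, Ube2l3, Ube2g2 and Ube2v1) at least 1 deposited count was not whole and was rounded. Ube2e1 also overlaps Nkiras1 on the opposite strand over 718 exonic bases.

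**Figure D3:**
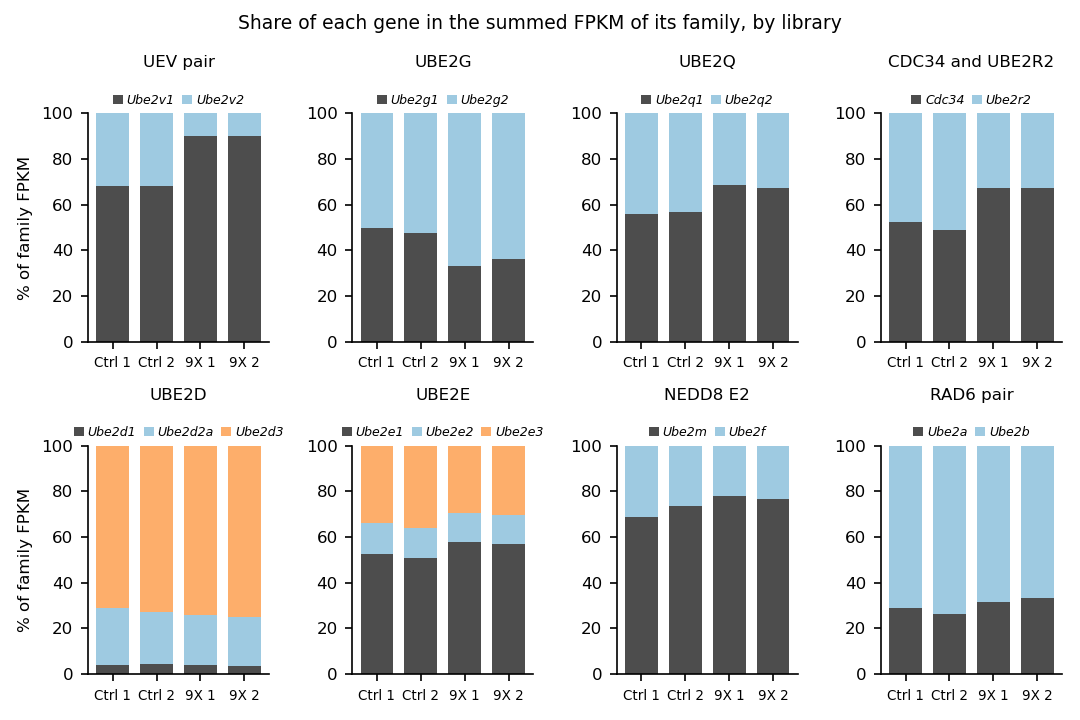
Percent of the summed FPKM of each family (vertical axis, 0 to 100) held by each of its genes in shCtrl libraries 1 and 2 (Ctrl 1, Ctrl 2) and shUSP9X libraries 1 and 2 (9X 1, 9X 2). The split of the UEV pair, UBE2G, UBE2Q and CDC34 with UBE2R2 differs between the groups in both libraries, and that of UBE2D differs by a few percent (Ube2d3 from 71.1 and 72.9 to 74.4 and 75.1).

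The E2 enzymes that work with cullin ligases went in different directions. Cdc34 and Ube2r2, close relatives, extend chains on substrates of SCF ligases, and Ube2g1 extends chains on substrates of cullin 4 ligases. Cdc34, which the symbol rule does not pick, had 59.9 and 60.4 CPM in shCtrl against 117 and 109 in shUSP9X (log2 fold change 0.91, SE 0.0565, adjusted p = 1.12e-13). Ube2r2 had 196 and 207 CPM in shCtrl against 199 and 193 in shUSP9X (-0.04, SE 0.0434), with overlapping groups. Of the FPKM of this pair Cdc34 held 52.4 and 48.8% in shCtrl and 67.3 and 67.1% in shUSP9X.

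Ube2g1 had 83.9 and 84.6 CPM in shCtrl against 69.1 and 73.9 in shUSP9X (log2 fold change -0.24, SE 0.0573, adjusted p = 0.000673), but with the GC content and length offset the sign turned to 0.49 (adjusted p = 3.62e-09). Ube2l3 (UBCH7), which works with HECT and RBR ligases such as Arih1 on cullins, rose from 183 and 175 to 241 and 247 CPM (0.44, SE 0.0423, adjusted p = 6.96e-10). Ube2l3 overlaps Ydjc on the opposite strand over 1670 exonic bases, and Ydjc had a mean count of 89.2. Of 22 cullins, their RING subunits and regulators, 9 fell and 8 rose, with a median of -0.03 that turned to 0.10 with the offset, under which 7 fell and 8 rose. Cul4b (-1.11, SE 0.0525) and Cul3 (-1.10, SE 0.0458) were the lowest, and Rnf7 (0.39, SE 0.0663), the RING subunit that works with Ube2f on cullin 5, and the SCF receptor Skp2 (0.63, SE 0.0655) the highest. The order differed with the offset, under which Cul4b and Cul3 were both at -0.44, Cul5 was the lowest (-0.51) and Cand1, which exchanges the receptors of cullin ligases, the highest (1.16, adjusted p = 5.25e-23, 0.23 without it). Cul5 and Cand1 were named after their values were seen.

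The 3 enzymes of the degradation of misfolded proteins at the endoplasmic reticulum (ERAD) were called higher, Ube2j1 by the smallest margin. Ube2g2 had 45.04 and 49.5 CPM in shCtrl against 72.8 and 69.3 in shUSP9X (log2 fold change 0.59, SE 0.0661, adjusted p = 1.27e-08). Ube2j2 is anchored in the membrane and rose from 67.7 and 60.8 to 85.7 and 79.4 CPM (0.36, SE 0.0628, adjusted p = 1.45e-05). Its relative Ube2j1 had 134 and 130 CPM in shCtrl against 140 and 148 in shUSP9X (0.12, SE 0.0477, adjusted p = 0.0243). The call of Ube2j1 was lost under DESeq2 (adjusted p = 0.0857), with library size only (0.081), on both FPKM scales (0.356 and 0.358), without shCtrl 2 (0.0554) and without shUSP9X 2 (0.253). The shUSP9X libraries were above the controls in each of the 3 genes. With the GC content and length offset Ube2g2 was at 0.36, Ube2j1 at 0.43 and Ube2j2 at 0.11, the last no longer called (adjusted p = 0.106).

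Of the 16 ERAD ligases and cofactors examined, 4 fell and 6 rose, with a median log2 fold change of -0.04 that was 0.0009 with the offset, under which 6 fell and 6 rose. Herpud1, a stress-induced scaffold of ERAD ligases, fell by 1.04 (SE 0.0725) and Ubxn4 by 0.53 (SE 0.0493) on the log2 scale, and with the offset they were at -1.27 and -0.25. Vcp, the ATPase that pulls substrates from the membrane, rose by 0.40 (SE 0.0336). Derl3 rose by 2.62 (SE 0.497) from a mean of 0.34 to 2.09 CPM, with 3 and 8 counts in shCtrl against 39 and 37 in shUSP9X. The value moved with the control library left out, at 2.03 without shCtrl 1 and 3.54 without shCtrl 2.

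Among the remaining E2 enzymes, Ube2h showed the steepest fall. Ube2h works with the CTLH (GID) ligase complex and is abundant in maturing red cells. It had 185 and 185 CPM in shCtrl against 105 and 110 in shUSP9X (log2 fold change -0.79, SE 0.0471, adjusted p = 5.91e-14), and the fall was nearly as large with the GC content and length offset (-0.74). Of 11 CTLH subunits and regulators 5 fell and 2 rose, with a median of -0.13, and with the offset 5 fell and 2 rose (median -0.11). Rmnd5a, a RING subunit, fell by 0.94 (SE 0.0776) and Mkln1, a substrate receptor, by 0.72 (SE 0.058) on the log2 scale, and with the offset they were at -0.42 and -0.28. Maea, the other RING subunit, rose by 0.28 (SE 0.0497) and Gid8 by 0.20 (SE 0.0762), and neither was called with the offset. The call of Gid8 was also lost under DESeq2 (adjusted p = 0.103), without shCtrl 2 (0.0882) and without shUSP9X 1 (0.129).

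Ube2h and Ube2b, which both fell, are, among the Ube2 genes with a RefSeq promoter, the only ones that hold the cyclic AMP response element (CRE, TGACGTCA, which reads the same on both strands). Counted by gene, it was present in 2 of 5 falling, 0 of 14 rising and 0 of 5 not called Ube2 genes. Over all tested genes with a promoter the share was 3.74%. Both Ube2h and Ube2b also had a promoter without it. The stretches around it are at chr6:30304540-30304579 (minus strand, from -40 to -1) for Ube2h and chr11:52000779-52000818 (minus strand, from -32 to 8) for Ube2b, with the CRE in capitals.
Ube2h: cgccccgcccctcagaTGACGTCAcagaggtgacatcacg
Ube2b: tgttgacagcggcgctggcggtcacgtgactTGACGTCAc
Of the 8 motifs searched, the GC box (GGGCGG) was the most frequent. It was in 12 of 14 rising, 5 of 5 falling and 4 of 5 not called Ube2 genes and in 71.0% over all tested genes. In the same order, the ETS motif (CCGGAAG) was in 5 of 14, 1 of 5, 1 of 5 and 21.5%. The E-box (CACGTG) was in 2 of 14, 1 of 5, 0 of 5 and 11.9%. The NRF1 motif was in 3 of 14, 1 of 5, 0 of 5 and 12.1%. The ISRE core was in none of the promoters of tested Ube2 genes and in 3.69% over all tested genes.

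The UBE2Q enzymes, E2 proteins with a long N-terminal extension, split. Ube2q2 fell from 97.2 and 97.9 to 66.5 and 70.9 CPM (log2 fold change -0.51, SE 0.0559, adjusted p = 9.83e-09). Ube2q1 had 97.6 and 103 CPM in shCtrl against 113 and 106 in shUSP9X (0.13, SE 0.0527, adjusted p = 0.0364), and this call was lost with the offset (0.06), under DESeq2 (adjusted p = 0.13), with library size only (0.107), without shCtrl 1 (0.141) and without shUSP9X 1 (0.377). Ube2q1 held 55.7 and 56.9% of the FPKM of the pair in shCtrl and 68.6 and 67.1% in shUSP9X.

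Ube2k, Ube2o and Ube2z rose by 0.13 to 0.17 on the log2 scale. Ube2k builds chains that mark proteins for the proteasome and was at 0.65 with the GC content and length offset, whereas Ube2o, a large enzyme with both E2 and E3 activity, and Ube2z, which is charged by Uba6, were at 0.07 and 0.05 and no longer called. None of the 3 calls held in every run. Without shCtrl 2 Ube2k was at 0.10 (adjusted p = 0.135) and without shCtrl 1 at 0.24, and without shUSP9X 2 the adjusted p was 0.162 for Ube2k, 0.0764 for Ube2o and 0.138 for Ube2z. DESeq2 called neither Ube2k (adjusted p = 0.072) nor Ube2o (0.0612), and neither Ube2o nor Ube2z was called on the FPKM scales. Uba6, as given above, fell. Ube2cbp (also Ube3d) was picked by its symbol but encodes a protein that binds E2 enzymes. By FPKM it was the least abundant tested Ube2 gene and rose from 4.33 and 4.24 to 8.25 and 8.67 CPM (0.98, SE 0.184, adjusted p = 4.12e-05). Without it 16 Ube2 genes rose, of which 4 passed 1.5-fold.

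Of the 8 E2 or E2-like genes with other names, 5 fell and 3 rose, with a median log2 fold change of -0.27, whereas under the GC content and length offset 3 fell and 5 rose, with a median of 0.43. Birc6, a giant enzyme that joins E2 and E3 activity and blocks apoptosis, had 336 and 369 CPM in shCtrl against 209 and 212 in shUSP9X (-0.74, SE 0.0428, adjusted p = 2.72e-14), and its sign turned with the offset (0.46, adjusted p = 1.9e-12). Atg10, the E2-like enzyme of autophagy, fell (-1.60, SE 0.373), and Ufc1, the E2 of UFM1, rose (0.65, SE 0.0665), with -1.07 and 0.41 under the offset. Ube2l6, the E2 of the interferon-induced modifier ISG15, was left out by the rule. Its counts were 285 and 248 in shCtrl against 1722 and 1584 in shUSP9X, a 5.63-fold difference.

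**Figure D4:**
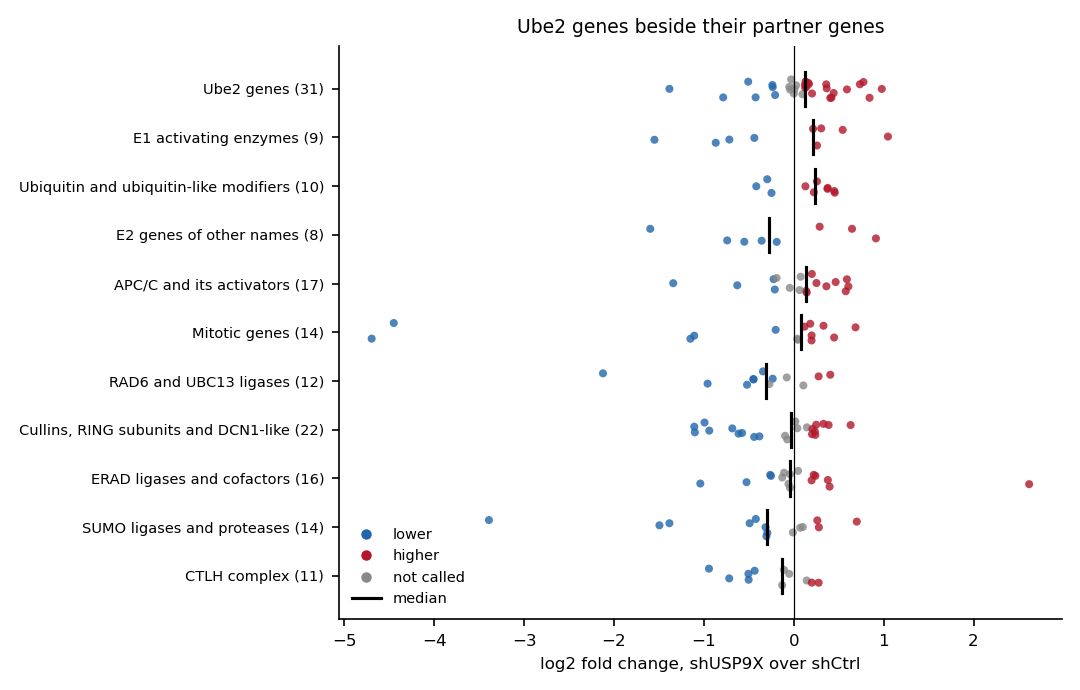
Log2 fold change (shUSP9X over shCtrl, horizontal axis) of each tested gene of the Ube2 set and of 10 lists of partner genes, with the number tested in parentheses; points are genes, colored as lower, higher or not called, with a small vertical scatter for legibility, and black bars are medians. The median of the Ube2 genes is 0.13, the lists range from -0.31 (RAD6 and UBC13 ligases) to 0.24 (modifiers), and 4 of the list medians turn sign when the offset is applied: E2 genes of other names (-0.27 to 0.43), mitotic genes (0.08 to -0.09), cullins (-0.03 to 0.10) and ERAD (-0.04 to 0.0009).

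The fold changes of the Ube2 genes followed the GC content of their transcripts, as did those of all genes in these libraries. Taken across genes, none of which is an independent replicate, Spearman's rho between log2 fold change and GC content was 0.51 over the 31 Ube2 genes and 0.44 over all tested genes; all points come from the same 4 libraries. The median GC content was 45.2% for the Ube2 genes that fell and 50.1% for those that rose, against 50.5% over all tested genes. The median transcript length was 2393 bases for those that fell, 1512 for those that rose and 2756 over all. Between 40 and 45% GC 67.0% of all genes fell and 9.80% rose, whereas of the 7 Ube2 genes in this range 2 fell and 4 rose. Between 55 and 60% GC 14.0% fell and 48.7% rose, and all 4 Ube2 genes in this range rose.

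When a loess trend of each library on GC content and length was removed by an offset, 5 Ube2 genes were lower and 16 higher, against 29.6% and 33.9% of all tested genes, and rho over the Ube2 genes was -0.16. Of the 7 genes that fell without the offset, 4 fell with it (Ube2v2, Ube2h, Ube2q2 and Ube2b), and of the 17 that rose, 13 rose with it. Under the offset 3 further genes rose, Ube2n and Ube2w, which were not called without it, and Ube2g1 (0.49, adjusted p = 3.62e-09), which fell without it. The transcript used for Ube2n was longer than its deposited values imply. Ube2r2 (-0.10, adjusted p = 0.0363) fell only with the offset. The median log2 fold change of the 31 genes was 0.11, against 0.02 over all tested genes. Whether GC content and length, or the biology of the genes that have them, set this trend was not tested.

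**Figure D5:**
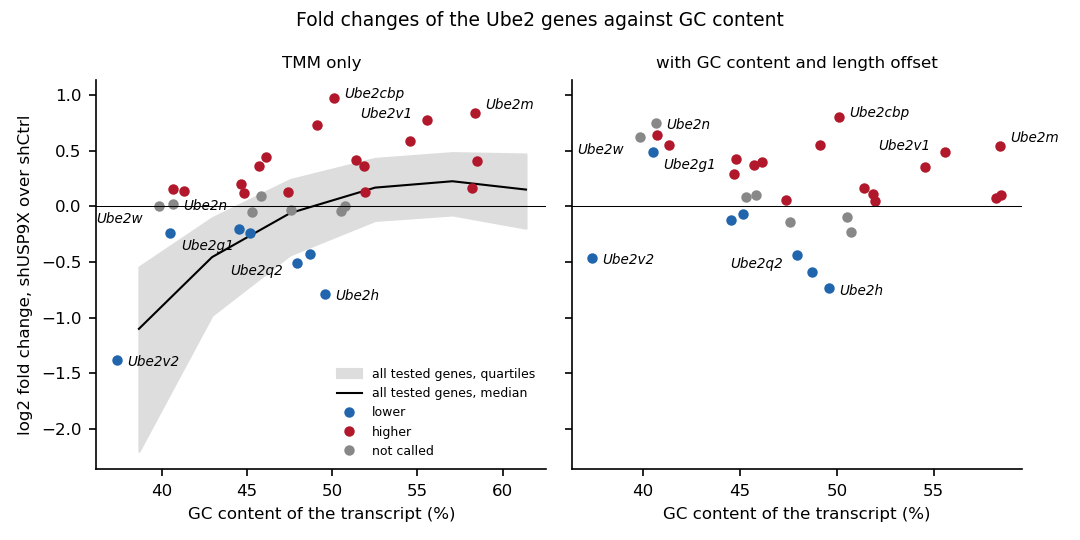
Log2 fold change (vertical axis) against GC content of the transcript in percent (horizontal axis) for the 31 tested Ube2 genes, without (left) and with (right) the GC content and length offset; the black line and gray band are the median and quartiles of all tested genes in ranges of GC content, and colors give the call without the offset. Ube2v2 is at 37.4% GC and -1.38 (left) or -0.47 (right), Ube2h is at about the same value in both panels, and Ube2g1 crosses 0.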

How the data were processed

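Poly(A)-selected RNA of 4 ID8 libraries was sequenced (NEBNext Ultra kit, not described as strand-specific). The tools named in the submitters' processing notes are fastp 0.18.0, Bowtie2 2.2.8, HISAT2, StringTie 1.3.1 and RSEM, and the study's methods give the genome as GRCm38. The annotation release and the tool that made each column are not given in the sources used here. For each gene and library the authors deposited estimated counts without normalization, of which 6.4 to 6.69% were not whole numbers. The authors also deposited FPKM values, scaled by transcript length and library size.

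After rounding, genes were filtered by filterByExpr and scaled by TMM, and 11448 went into the quasi-likelihood fit and test in R 4.3.3 with edgeR 4.0.16, with Benjamini-Hochberg adjustment over all of them and no replicate block. The test had been planned for whole counts. The common biological coefficient of variation was 0.0352. CPM values are TMM-normalized over the tested genes. The detection floor was 3 counts, and errors cover counting and library error only, since no molecular identifiers are described. Libraries of 1 group differed beyond sampling noise (chi-square per gene 3.41 in shCtrl and 2.23 in shUSP9X), so each counted as 1 replicate. An exact permutation test of 2 against 2 libraries cannot give a two-sided p below 0.3333 and was not used. Coordinates, GC content and lengths came from GENCODE M21 (GRCm38), from the protein-coding transcript nearest in length to the one implied by the deposited values, and were known for 99.8% of tested genes. For some genes the nearest transcript was still far from the implied length. Examples are Mkln1 (791 against 4710 to 5178 bases), Rnf8 (924 against 2043 to 2148) and Birc6 (14562 against 10491 to 11249). Among the Ube2 genes, Ube2b (585 against 958 to 1024) and Ube2n were such cases. The effect on their offset values was not tested. Promoters came from RefSeq.

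Every tested Ube2 gene was given by name or in the count of its class. Of each partner list the 2 lowest and 2 highest called genes were named, except that some genes of these sets are not reported here. The members, lists and tests were chosen with earlier results of these data known. Alternatives were DESeq2 1.42.0, other scalings and filters, limma-trend (limma 3.58.1) on log2(FPKM + 1) or log2(FPKM + 0.1) where the mean FPKM reached 1, a fit with the replicate number as a block, a loess offset (span 0.3) on GC content and length, and each library left out. The procedures were tested on simulated data.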

Additional observations from a re-analysis of the deposited data

How the results depend on the processing

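Of the 24 called Ube2 genes, 15 kept their direction and call under all 15 alternatives, and 17 under those without the GC content and length offset. The calls of Ube2a, Ube2d2a, Ube2j1, Ube2j2, Ube2k, Ube2o, Ube2q1 and Ube2z were lost under at least 1 alternative. Under DESeq2 6 Ube2 genes fell and 13 rose, and 6563 of all genes were called in place of 7707. The median log2 fold change of the Ube2 genes was 0.16 with upper quartile scaling and 0.10 with library size only, and from 0.12 to 0.15 with single libraries left out. Each of those runs left 1 library in a group. The lone library of a group was then assumed to vary like the other group.

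Among the Ube2 genes and the partner genes named by rule, signs turned as follows. Over all 133 partner genes tested, 9 were called in opposite directions without and with the offset, among them Birc6 and Ufm1. With the GC content and length offset, without or with the replicate block, Ube2g1 was at 0.49, Ube2e3 at 0.088 or 0.089, Ube2e2 at -0.23, Birc6 at 0.46, Ufm1 at 0.46 and Rnf8 at -0.046. On log2(FPKM + 1) and log2(FPKM + 0.1), Ube2d2a was at 0.034 and 0.035, Ube2w at -0.028 and -0.030, and Ube2n at -0.041 and -0.042. With library size only, Ube2w was at -0.028, Ube2e2 at -0.022 and Ube2n at -0.0033. With at least 10 counts in every library, Ube2w was at -0.0069 and Ube2e2 at -0.0005, and with the upper quartile Ube2t was at 0.0033. With 1 library left out, Ube2r2 ranged from -0.070 to 0.0020, Ube2t from -0.059 to 0.012, Ube2w from -0.021 to 0.036, Ube2e2 from -0.050 to 0.083 and Ube2n from -0.019 to 0.086. Ube2t, Ube2w, Ube2e2, Ube2e3, Ube2n and Ube2r2 were not called with TMM alone. The cause of each turn was not tested.

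With the replicate number as a block, 7665 of all genes were called in place of 7707, with 7 Ube2 genes lower and 17 higher as before. The libraries share only a number. The deviations of same-numbered libraries had a correlation of -0.05 over 11448 genes.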
